A study of Mus musculus with 69 samples.

Results

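Chemokines are small secreted proteins that guide leukocytes, and they act through G protein-coupled receptors on the cells they attract. Atypical receptors bind the same ligands without the usual G protein signal and remove them from the surroundings. In the kidney, tubule cells can make chemokines such as Cxcl1, which attracts neutrophils, and Ccl2, which attracts monocytes, while most of the receptors are carried by leukocytes. The 61 genes of this system described here, 39 ligands and 22 receptors, were taken from the 24411 genes of the count matrix by symbol alone. They comprise every gene named Ccl, Cxcl, Cx3cl, Xcl, Ccr, Cxcr, Cx3cr, Xcr or Ackr with a number, and 4 of the receptors are the atypical Ackr genes. Of these, 57 had at least 2 counts over the 69 libraries and were tested among 21175 genes. Ccl21a, Ccl21b, Ccl21c and Ccl27b had no count in any library, and 0 counts allow a level of up to 0.099 to 0.238 counts scaled to library size (CPM), depending on the library.

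Nascent RNA was captured from kidneys of mice in which Cre switches on the Uprt gene of Toxoplasma gondii, so that only Cre-expressing cells should build 4-thiouracil (4-TU) into new RNA. The genotypes were Hoxb7Cre;UPRTf/+, in which Cre acts in the collecting duct, and a second line that the labels spell Atp6b1v1Cre;UPRTf/+, in which Cre acts mainly in intercalated cells and which is written Atp6v1b1Cre here. All mice were given 430 mg/kg of 4-TU 4 hours before the kidneys were taken. Ischemia (iAKI in the labels) was a 10 minute clamp of both renal arteries examined 24 hours later, and volume depletion (vAKI) was 72 hours without free access to food and water. At 5.5 months of age the Hoxb7Cre pulldowns comprised 4 male and 4 female controls, 4 males and 3 females after ischemia, and 3 males and 4 females after volume depletion. The Atp6v1b1Cre pulldowns comprised 4 male and 4 female controls, 3 males and 3 females after ischemia, and 4 males and 3 females after volume depletion. A further 2 Hoxb7Cre females and 3 Atp6v1b1Cre males of 3 months were controls. Total kidney RNA, labelled Untagged and sequenced without the capture step, made up 21 control libraries of both genotypes, 16 of 5.5 months and 5 of 3 months, and none after injury. These mice had received 4-TU too, so total RNA also holds the tagged RNA. Every combination of genotype, sex, age and library series held as many total as pulldown control libraries, and both may come from the same mice, which no label states.

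The libraries held 12618062 to 30305464 counts, with a median of 20868430. Summed principal cell markers reached 1085 to 3483 CPM in the Hoxb7Cre controls against 735 to 1292 CPM in total RNA, and summed intercalated cell markers reached 808 to 1865 CPM in the Atp6v1b1Cre controls against 419 to 724 CPM. Markers of leukocytes, which neither line is meant to tag, were still present in the pulldowns: the 14 macrophage and monocyte markers summed to 50.9 to 104.6 CPM in Hoxb7Cre controls, 131 to 202 CPM in Atp6v1b1Cre controls and 152 to 289 CPM in total RNA. The paper reports that Atp6v1b1Cre marked a few interstitial cells in some kidneys. It found Cd163 variably enriched in those pulldowns, perhaps from another kind of interstitial cell. Labelling in kidneys without Cre was weaker there. In these bulk libraries fewer cells of a type and less RNA per cell cannot be told apart. The library numbers fall into 3 series, 1 to 40 (A), 65 to 85 (B) and 98 upwards (C), and every injured Hoxb7Cre library is of series A while its controls are of series A, B and C.

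The letters of some promoters are shown first, because the ligands that responded most to volume depletion, Cxcl1 and Cxcl2, and the neutrophil attractant Cxcl3, which responded to ischemia, are neighbours on chromosome 5 with like sequences before their start sites. Cxcl10, an interferon-inducible ligand of the same chromosome, is shown beside them. These are the 250 bases before the RefSeq start site (GRCm38.p6) at chr5:90890995-90891244 for Cxcl1, chr5:90903649-90903898 for Cxcl2 and chr5:90785851-90786100 for Cxcl3, all on the plus strand, and at chr5:92348890-92349139 on the minus strand for Cxcl10. Each runs 5′ to 3′ with matches to the NF-kappaB motif in capitals.
Cxcl1: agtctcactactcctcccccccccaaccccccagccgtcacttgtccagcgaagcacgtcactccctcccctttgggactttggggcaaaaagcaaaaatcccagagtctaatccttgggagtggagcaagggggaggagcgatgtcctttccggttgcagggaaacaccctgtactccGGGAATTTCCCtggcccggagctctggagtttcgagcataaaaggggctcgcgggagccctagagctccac
Cxcl2: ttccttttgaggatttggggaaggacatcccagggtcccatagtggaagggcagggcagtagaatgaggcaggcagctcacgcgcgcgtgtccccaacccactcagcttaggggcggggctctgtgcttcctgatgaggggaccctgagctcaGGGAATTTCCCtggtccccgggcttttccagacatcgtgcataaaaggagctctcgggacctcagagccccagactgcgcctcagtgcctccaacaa
Cxcl3: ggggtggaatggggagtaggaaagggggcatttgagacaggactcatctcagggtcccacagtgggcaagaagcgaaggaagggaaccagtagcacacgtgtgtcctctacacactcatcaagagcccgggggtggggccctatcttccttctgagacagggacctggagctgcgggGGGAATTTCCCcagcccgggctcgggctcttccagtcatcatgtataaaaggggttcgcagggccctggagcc
Cxcl10: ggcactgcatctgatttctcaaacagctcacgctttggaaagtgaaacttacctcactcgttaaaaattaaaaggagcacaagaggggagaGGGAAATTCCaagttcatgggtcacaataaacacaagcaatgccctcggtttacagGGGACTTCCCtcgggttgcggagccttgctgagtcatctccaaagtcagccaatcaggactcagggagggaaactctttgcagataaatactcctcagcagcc
The same 10 letters, GGGAATTTCC, end 62 bases before the start of Cxcl1, 88 before that of Cxcl2 and 64 before that of Cxcl3, and each overlaps a match on the other strand that lies 1 base further on. Cxcl10 held GGGAAATTCC ending 150 bases and GGGACTTCCC ending 94 bases before its start. It also held an AP-1 match, TGAGTCA, for which TGANTCA was searched, and a match to the interferon-stimulated response element, GAAAGTGAAA, for which GAAA and GAAA with NN between them were searched. Over windows of 250 bases before to 50 after the start, and on both strands, the NF-kappaB motif lay in 10 of the 52 windows of the 45 chemokine genes with a window (19.2%) and in 1480 of the 32851 windows of all genes (4.51%). The 10 windows belong to Cxcl1, Cxcl2, Cxcl3, Cxcl10, Ccl9, Ccl20, Ccl27a, Ccr3, Ccr6 and Ackr2. AP-1 matches lay in 17.3% of the chemokine windows and 7.81% of all windows, interferon element matches in 5.77% and 3.44%, TATAAA in 26.9% and 13.6%, and TTCNNNGAA, the gamma-activated sequence, in 5.77% and 8.3%. A match is a string of letters and no evidence of binding. Cxcl5, Ccl2, Ccl7 and Cxcl11 are among the 16 genes without a window.

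In control kidneys the question was which chemokine genes were present in the captured RNA of each line compared with total RNA of the whole kidney. The paper says that capture may favour RNA rich in uracil and RNA of high turnover. This comparison cannot separate these from cell type, and their part was not tested. Divided by exon length, the highest mean level among the 61 genes in total RNA was that of Cxcl12, the ligand of Cxcr4, at 22.4 ± 3.3 CPM per kb (SD, n = 21). Cx3cl1, the membrane-bound ligand of Cx3cr1, at 20.4 ± 3.3 CPM per kb, and Ackr3, the atypical receptor of Cxcl12, at 20.3 ± 8.1 CPM per kb were within 1 SD of it. Ackr3 was the highest in the Hoxb7Cre pulldowns at 28.3 ± 7.3 CPM per kb (n = 10) and in the Atp6v1b1Cre pulldowns at 23.4 ± 8.0 CPM per kb (n = 11). In Atp6v1b1Cre, Cx3cl1 was within 1 SD of Ackr3, at 21.2 ± 2.7 CPM per kb. Most of the system was low: 9 genes in Hoxb7Cre, 13 in Atp6v1b1Cre and 14 in total RNA reached 1 CPM per kb.

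**Figure D1:**
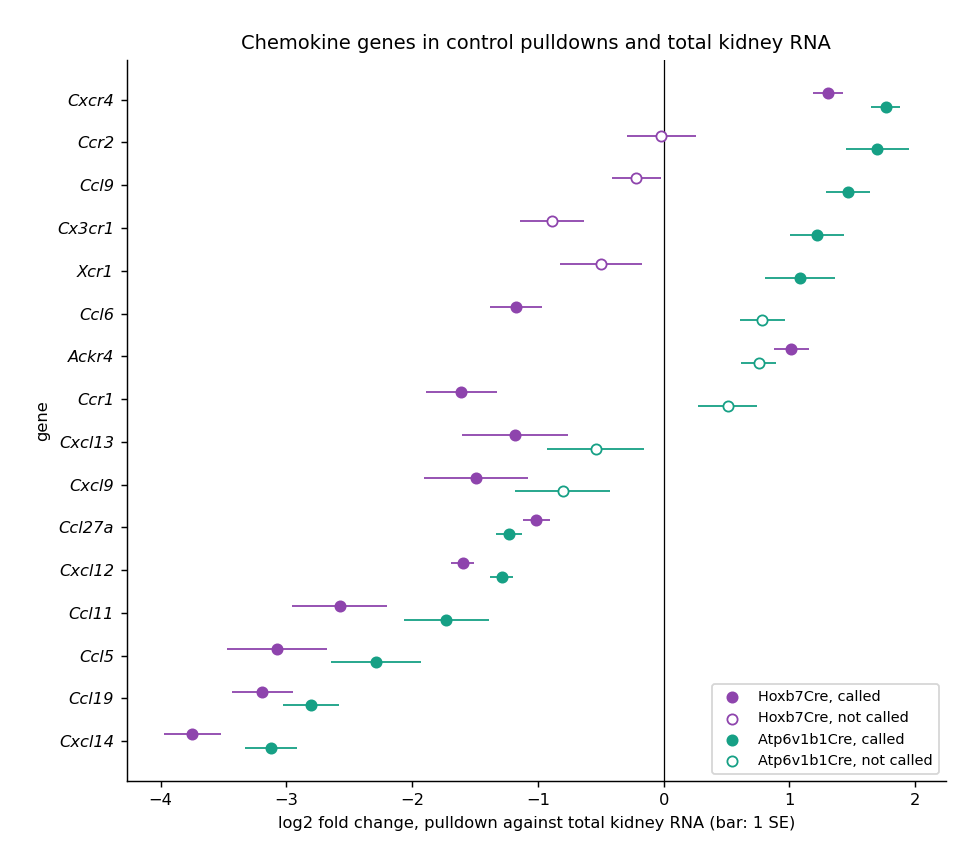
Log2 fold changes of control pulldowns against total kidney RNA for chemokine genes called in at least 1 of both comparisons at a mean of at least 10 counts, with 1 gene not shown. Each point is the fitted change in Hoxb7Cre (n = 10) or Atp6v1b1Cre (n = 11) against total RNA (n = 21) with a bar of 1 SE, filled where it was called; Cxcl14 lies furthest to the left and Cxcr4 to the right of 0 in both lines.

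Cxcl12, Cxcl14, Ccl19, Ccl5, Ccl11 and Ccl27a were among the ligands called lower in the nascent RNA of both cell populations than in total RNA. Cxcl12 ranged from 119 to 243 CPM (median 183) in total RNA, from 40 to 75.7 CPM (median 62.2) in Hoxb7Cre and from 52.7 to 88.9 CPM (median 74.2) in Atp6v1b1Cre pulldowns. The pulldowns did not overlap total RNA, and the log2 fold changes were -1.60 ± 0.09 (SE) and -1.29 ± 0.09 (adjusted p = 4.8e-20 and 1.4e-17). Cxcl14, a constitutively made ligand of epithelium and stroma, ranged from 9.59 to 37.1 CPM (median 19.9) in total RNA, from 0.824 to 4.08 CPM (median 1.41) in Hoxb7Cre and from 1.07 to 4.46 CPM (median 1.95) in Atp6v1b1Cre. Its log2 fold change of -3.75 ± 0.23 was the lowest among the genes called in Hoxb7Cre, and that in Atp6v1b1Cre was -3.12 ± 0.21 (adjusted p = 1.6e-19 and 5.9e-18). Ccl19, a ligand of Ccr7 made in lymphoid stroma, also lay apart, with medians of 2.06 CPM in total RNA, 0.197 CPM in Hoxb7Cre and 0.267 CPM in Atp6v1b1Cre. Ccl5, a T cell product, and Ccl11, an eosinophil attractant, were lower in both pulldowns (log2 fold changes of -3.07 and -2.58 in Hoxb7Cre, -2.29 and -1.73 in Atp6v1b1Cre), and for both genes the pulldowns overlapped total RNA: 1 of 10 Hoxb7Cre and 4 of 11 Atp6v1b1Cre libraries lay above its lowest value for Ccl5, and 4 and 6 for Ccl11. Ccl27a, best known from skin, was lower by the same test, at -1.01 ± 0.11 and -1.23 ± 0.10.

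Cxcr4, the signalling receptor of Cxcl12, was the one receptor called higher in both pulldowns. It ranged from 3.90 to 12.2 CPM (median 8.35) in total RNA, from 14.7 to 27.8 CPM (median 21.6) in Hoxb7Cre and from 21.0 to 45.0 CPM (median 27.6) in Atp6v1b1Cre. No pulldown overlapped total RNA, and the log2 fold changes were 1.31 ± 0.12 and 1.76 ± 0.12 (adjusted p = 2.8e-13 and 5.3e-18). Ackr4, an atypical receptor that takes up Ccl19, Ccl21 and Ccl25, was higher in Hoxb7Cre at a median of 2.02 CPM against 1.01 CPM (log2 fold change 1.01 ± 0.14; 0.83 and so short of 2-fold with genotype, sex, age and library series as a block), and its exons share bases with those of Acad11. The other genes higher in Atp6v1b1Cre than in total RNA are known from leukocytes. Ccl9 ranged from 4.24 to 11.6 CPM (median 5.64) there and from 1.00 to 4.22 CPM (median 1.88) in total RNA, without overlap (1.46 ± 0.18, adjusted p = 5.5e-10), while Ccr2 (1.70 ± 0.25), Cx3cr1 (1.22 ± 0.22) and Xcr1 (1.08 ± 0.28) had overlapping groups, and none of the 14 macrophage and monocyte markers was called higher there. In all, 2 genes were higher and 14 lower in Hoxb7Cre, and 11 higher and 8 lower in Atp6v1b1Cre; with 32.5% and 27.7% of all genes called, 28.1% and 33.3% of the chemokine genes were. Split by direction, 14.6% of all genes were higher and 17.9% lower in Hoxb7Cre, and 11.3% higher and 16.4% lower in Atp6v1b1Cre. The groups did not overlap for 6 chemokine genes in each comparison (26.1% and 24.5% of all genes). The median log2 fold change of all genes was 0.11 in both, and that of the chemokine genes -0.50 and 0.48.

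Between the control pulldowns, 15 chemokine genes were called higher in Atp6v1b1Cre than in Hoxb7Cre and none lower (26.3%, against 2.58% of all genes higher and 4.11% in either direction). Among them were the ligands Ccl3, Ccl4, Ccl6, Ccl9, Ccl12, Ccl22 and Ccl24 and the receptors Ccr1, Ccr2, Ccr7, Cxcr3, Cxcr6, Cx3cr1 and Xcr1, all known mainly from leukocytes. Ccr2, the receptor of Ccl2 on monocytes, ranged from 2.48 to 16.5 CPM (median 8.76) in Atp6v1b1Cre and from 0.899 to 7.33 CPM (median 1.8) in Hoxb7Cre, so that the groups overlapped (log2 fold change 1.72 ± 0.31, adjusted p = 6.7e-05). Cxcr3, a T cell receptor of Cxcl9 and Cxcl10, ranged from 0.370 to 1.68 CPM against 0.0398 to 0.322 CPM and was the gene without overlap, as were 1.17% of all genes (2.39 ± 0.29, adjusted p = 3.4e-08). Ccl6 and Ccl9, ligands made by myeloid cells, had medians of 5.83 and 5.64 CPM against 0.973 and 1.31 CPM. Of the leukocyte markers, 7 of 14 macrophage and monocyte markers were higher and 1 lower, 8 of 10 T and NK cell markers were higher, and the latter summed to 4.72 to 19.4 CPM in Atp6v1b1Cre and 1.56 to 4.29 CPM in Hoxb7Cre. Their part in these differences was not tested. The control groups of the lines also differed in their mix of sex, age and library series, and sex alone was a covariate. Fewer chemokine genes were called in the smaller fit of females only.

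Ischemia and volume depletion were then compared with control in males, which the study presents in its main results. In Hoxb7Cre males ischemia led to calls for 9 of 57 chemokine genes (15.8%, against 2.3% of all genes), 8 higher and 1 lower (1.52% and 0.784% of all genes), and volume depletion to 19 (33.3%, against 16.4%), 11 higher and 8 lower (9.61% and 6.81%). In Atp6v1b1Cre males 7 were called after ischemia (12.3%, against 2.82%), 6 higher and 1 lower (1.14% and 1.68%), and 6 after volume depletion (10.5%, against 5.15%), 3 in each direction (3.45% higher and 1.7% lower). Whether called or not, the groups did not overlap for 10 and 21 of the 57 genes in Hoxb7Cre males after ischemia and volume depletion (15.8% and 39.5% of all genes) and for 16 and 9 in Atp6v1b1Cre males (20.8% and 14.4%). The medians over the 57 genes were 0.32 and 0.38 in Hoxb7Cre and 0.25 and -0.10 in Atp6v1b1Cre males on the log2 scale, and that of all genes was 0 in each comparison. A call required an adjusted p under 0.05 and a change of at least 2-fold. With 1 library left out, 5 to 13 genes were called after ischemia and 15 to 20 after volume depletion in Hoxb7Cre males. The ranges in Atp6v1b1Cre males were 2 to 8 and 4 to 10.

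**Figure D2:**
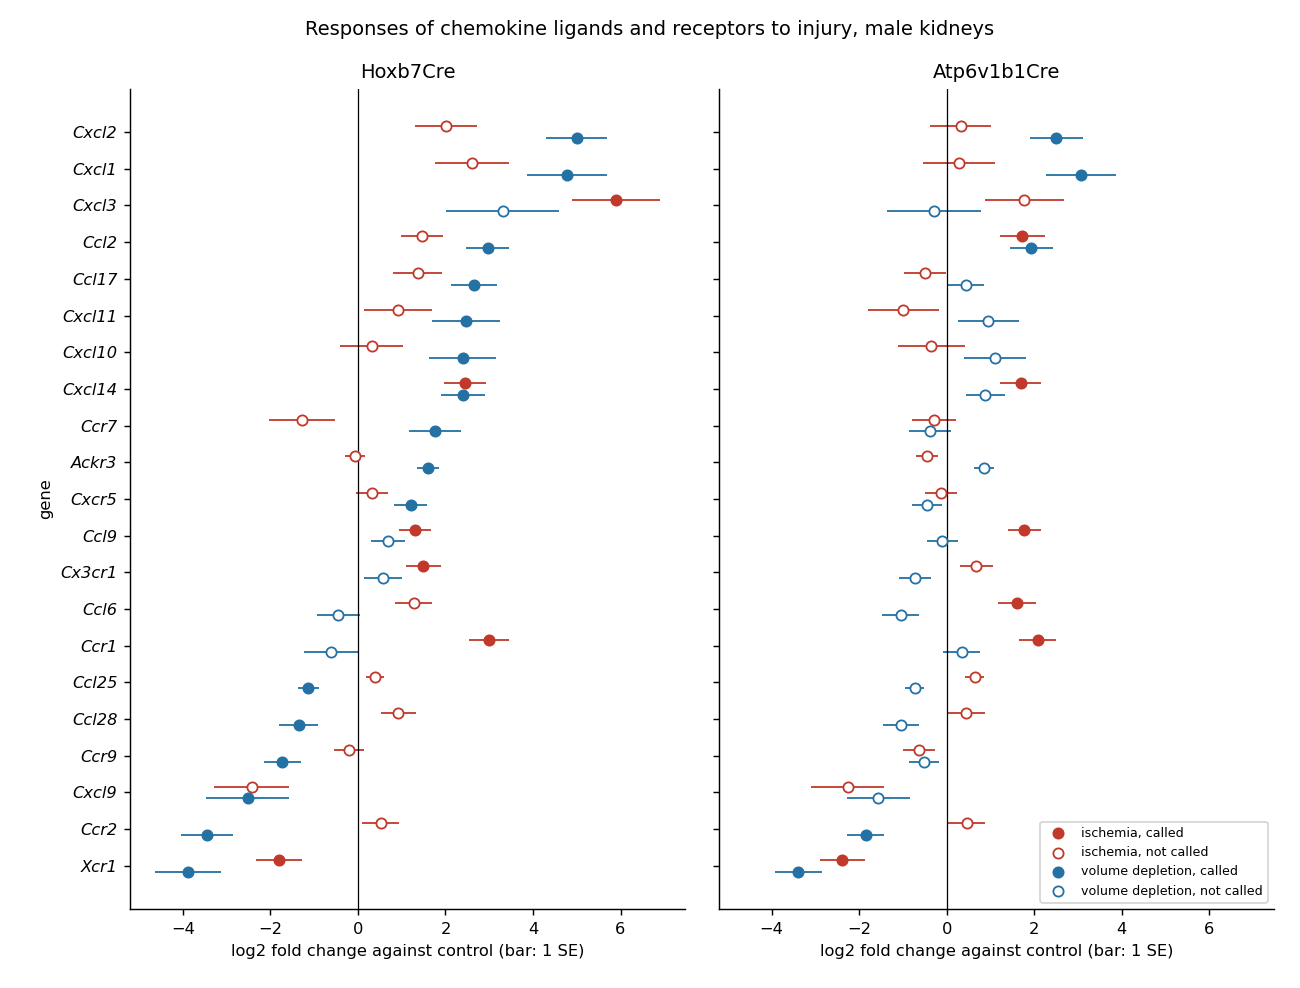
Log2 fold changes against control in males for chemokine genes called in at least 1 of the 4 comparisons at a mean of at least 10 counts, with 1 gene not shown; each point is the fitted change with a bar of 1 SE, filled where it was called. Ccr1 lies well to the right of 0 after ischemia in both lines, and Cxcl1, Cxcl2 and Ccl2 do so after volume depletion.

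The neutrophil attractants Cxcl1 and Cxcl2, which act through Cxcr2, rose most after volume depletion. In Hoxb7Cre males Cxcl1 stood at 38.6, 64.6 and 71.6 CPM after volume depletion and at 0.823, 0.577, 2.58 and 4.56 CPM in controls. Every depleted library lay above every control, and the log2 fold change was 4.78 ± 0.90 (adjusted p = 0.00026), or 6.36 against the 2 controls of series A alone (adjusted p = 8.1e-07). After ischemia the Hoxb7Cre levels of Cxcl1 were 13.9, 14.4, 10.0 and 13.4 CPM, also above every control but with a change of 2.61 ± 0.84 that did not pass (adjusted p = 0.067). Within series A, where the 2 controls held 0.577 and 0.823 CPM, the change was 4.16 and was called (adjusted p = 0.00084), and with the series as a covariate it was 4.11 (adjusted p = 0.00033). In Atp6v1b1Cre males the level of Cxcl1 was 6.20, 9.49, 84.3 and 90.2 CPM after volume depletion against 0.961, 9.27, 2.59 and 9.57 CPM in controls. Here 2 depleted libraries were far above and 2 overlapped the controls, and the fitted change was 3.07 ± 0.80 (adjusted p = 0.012). The high pair was of library series B, in which the controls were at 2.59 and 9.57 CPM, and the low pair of series A. Among the series A libraries alone, with 2 controls, the change was 0.62 (adjusted p = 0.56). The call was also lost without depleted replicate 7, at 2.55 (adjusted p = 0.050).

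Cxcl2 followed the same order at a lower level. It stood at 7.85, 8.52 and 13.6 CPM in volume-depleted Hoxb7Cre males and at 0.137, 0.315, 0.269 and 0.518 CPM in controls, a log2 fold change of 5.00 ± 0.70 (adjusted p = 9.5e-06) without overlap. In Atp6v1b1Cre males it stood at 1.13, 1.66, 5.81 and 7.05 CPM against 0.0915, 0.737, 1.02 and 0.819 CPM, again without overlap (2.5 ± 0.61, adjusted p = 0.0081), and in series A alone the change was 1.77 (adjusted p = 0.10). After ischemia Cxcl2 reached 1.8, 1.51, 0.849 and 0.892 CPM in Hoxb7Cre males, which did not pass (2.02 ± 0.71, adjusted p = 0.095) but did in series A alone, at 2.45 (adjusted p = 0.024).

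**Figure D3:**
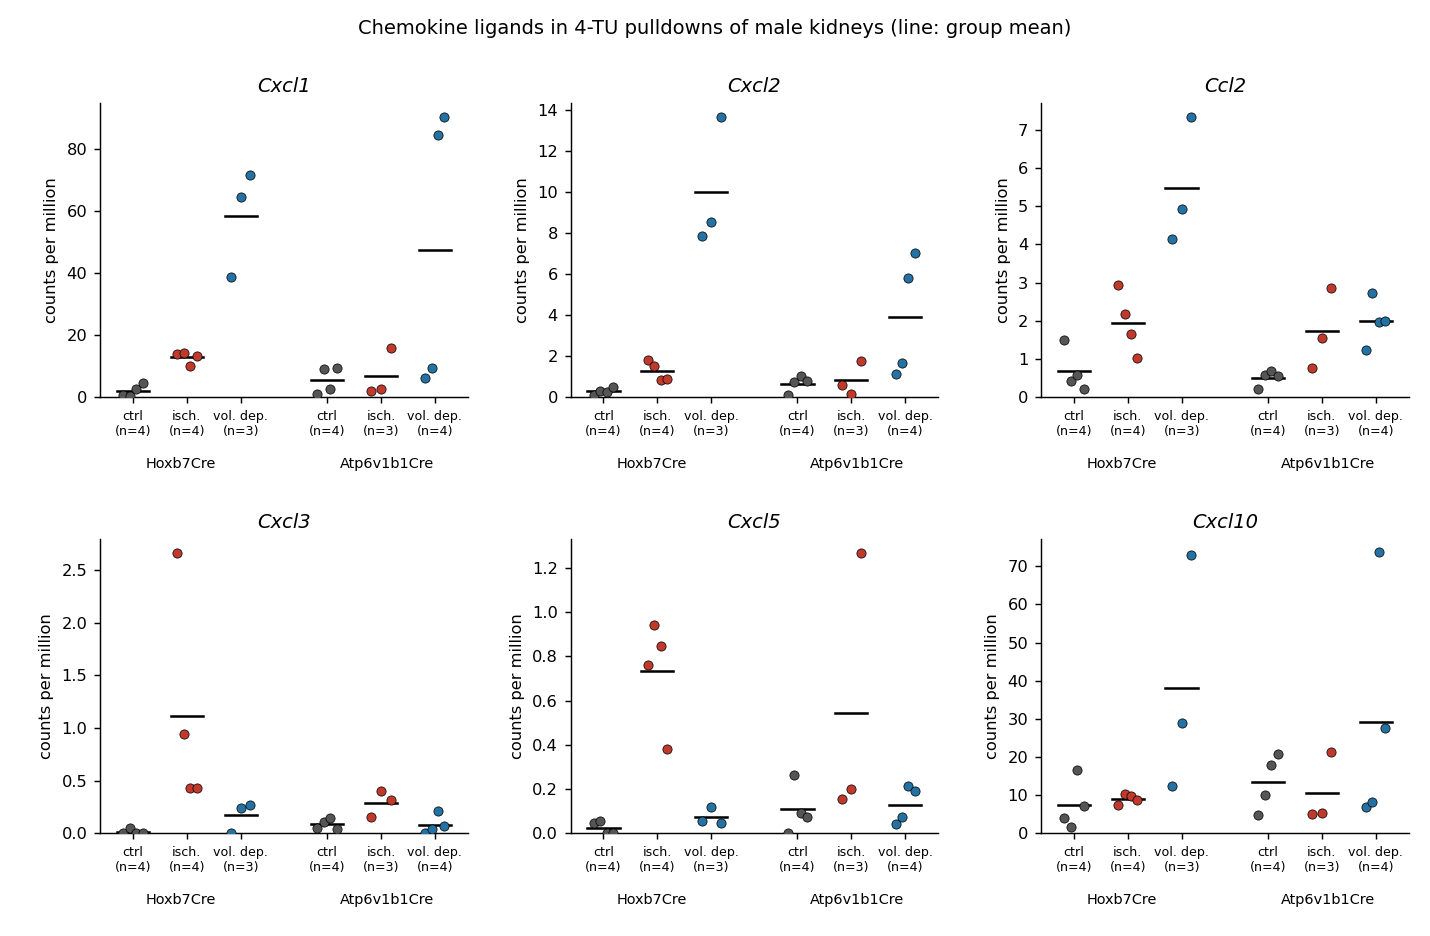
Chemokine ligands in 4-TU pulldowns of male kidneys, in CPM on linear axes from 0, with 1 point per library for control (ctrl), ischemia (isch.) and volume depletion (vol. dep.) in each Cre line and a line at the group mean. The 3 volume-depleted Hoxb7Cre libraries hold the highest Cxcl1, Cxcl2 and Ccl2 levels of their line, while Cxcl3 and Cxcl5 are highest after ischemia there.

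Cxcl3 and Cxcl5, also ligands of Cxcr2 from the same cluster (Cxcl5 at chr5:90759298-90761625), rose after ischemia in Hoxb7Cre males. Cxcl3 stood at 2.67, 0.944, 0.424 and 0.425 CPM after ischemia and at 0, 0.0525, 0 and 0 CPM in controls. Of the 87 ischemic counts 49 were in replicate 4. The fitted log2 fold change was 5.02 to 7.56 over refits that left out 1 library, and none lost the call. With 1 count over the controls the ratio was 84.5 (exact 95% interval 14.8 to 3380, for counting error only; adjusted p = 0.0020). Cxcl5 stood at 0.762, 0.944, 0.849 and 0.382 CPM after ischemia and had 2 counts over the controls, a ratio of 28.7 (7.59 to 242; adjusted p = 0.0047). Both were higher after ischemia than after volume depletion in the direct comparison, by 2.59 ± 0.75 and 3.18 ± 0.83 on the log2 scale (adjusted p = 0.010 and 0.0047), which for Cxcl1 and Cxcl2 had the opposite sign, at -2.17 ± 0.79 and -2.99 ± 0.60 (adjusted p = 0.038 and 0.00049). Without ischemic replicate 4 the difference for Cxcl3 was 1.72 (adjusted p = 0.074). The difference for Cxcl1 was lost in each of 6 refits that left out 1 ischemic or depleted library, at -2.25 to -2.0.

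Their receptors were scarce. Cxcr2, which neutrophils carry, stood at 0.817, 0.566, 0.265 and 0.510 CPM after ischemia in Hoxb7Cre males and at 0.0457, 0.367, 0 and 0 CPM in controls (2.34 ± 0.74, adjusted p = 0.064). It was at 0.0789 to 0.221 CPM after volume depletion, when its ligands Cxcl1 and Cxcl2 were at their highest. Cxcr1 had 6 counts in all 69 libraries. The 11 neutrophil markers in the table summed to 2.18 to 4.25 CPM after ischemia, 1.30 to 1.99 CPM after volume depletion and 0.880 to 1.78 CPM in controls of Hoxb7Cre males; 2 of the 11 passed after ischemia and 1 passed after volume depletion. Their part in the levels of Cxcr2 was not tested.

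Ccl2, the monocyte attractant, and its neighbour Ccl7 are ligands of Ccr2. Ccl2 stood at 4.15, 4.93 and 7.34 CPM after volume depletion in Hoxb7Cre males and at 1.51, 0.420, 0.592 and 0.207 CPM in controls (2.97 ± 0.49, adjusted p = 6.4e-05), without overlap. In Atp6v1b1Cre males it reached 1.25, 2.72, 1.98 and 1.99 CPM after volume depletion and 0.777, 1.54 and 2.86 CPM after ischemia, against 0.229, 0.579, 0.693 and 0.558 CPM in controls. Both changes were called (1.94 ± 0.49 and 1.73 ± 0.52, adjusted p = 0.011 and 0.040), but the ischemic one was lost in 5 refits that left out 1 library, at 1.18 to 1.79, and in series A alone, at 1.52 (adjusted p = 0.17). Ccl7 rose in Hoxb7Cre males after ischemia (0.980, 0.849, 0.584 and 0.637 CPM against 0.0915, 0, 0 and 0.207 CPM; 3.23 ± 0.60, adjusted p = 0.0032). The ischemic change was 2.8 to 4.3 over refits that left out 1 library, and none lost the call. After volume depletion the change of Ccl7 was 2.23 ± 0.67 (adjusted p = 0.012), 2.01 without depleted replicate 6 (adjusted p = 0.055) and 2.82 in series A alone (adjusted p = 0.0080).

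Cxcl10 and Cxcl11, interferon-inducible ligands of Cxcr3, were called higher after volume depletion in Hoxb7Cre males, with depleted replicate 7 far above the others. Cxcl10 stood at 12.2, 28.8 and 73.1 CPM against 3.84, 1.47, 16.6 and 7.2 CPM (2.39 ± 0.77, adjusted p = 0.017), and without that library the change was 1.5 (adjusted p = 0.18). Cxcl11 stood at 1.16, 1.38 and 8.24 CPM against 0.503, 0.262, 1.08 and 0.776 CPM (2.46 ± 0.78, adjusted p = 0.016), and without the same library it was 0.96 (adjusted p = 0.41). Leaving out control replicate 3 also lost both calls, at 2.05 and 2.20 (adjusted p = 0.054 and 0.052), and control replicate 2 that of Cxcl10. Within series A, the series of all depleted libraries, the changes were larger, at 3.82 and 3.19 (adjusted p = 4.1e-05 and 0.0048), and the 2 controls averaged 2.64 CPM of Cxcl10 against 11.9 CPM in series B. Their neighbour Cxcl9 was called lower (-2.52 ± 0.95, adjusted p = 0.041), with control replicate 4 at 3.23 CPM and the other controls at 0.210 to 0.725 CPM. Without that control the change was -1.03 (adjusted p = 0.41), and the call was also lost without depleted replicate 4, 6 or 7. Within series A the mean was 0.218 CPM in the 2 controls and 0.186 CPM after depletion (-0.25, adjusted p = 0.90), against 1.98 CPM in the 2 controls of series B. Exons of Cxcl10 and Cxcl11 share bases with Art3 and a pseudogene on the other strand, so their counts are uncertain where reads could fall to either. Cxcr3 itself was at 0.0915 to 0.323 CPM in all Hoxb7Cre males.

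Cxcl14, which was far lower in the control pulldowns than in total RNA, rose after both injuries in Hoxb7Cre males. It stood at 4.14, 13.5, 3.29 and 5.61 CPM after ischemia and at 7.25, 4.97 and 6.94 CPM after volume depletion, against 1.60, 1.31, 0.969 and 0.932 CPM. Neither injured group overlapped the controls (2.45 ± 0.48 and 2.39 ± 0.50, adjusted p = 0.0046 and 0.00071). In Atp6v1b1Cre males it was called after ischemia, at 9.29, 3.69 and 13.8 CPM against 2.70, 5.00, 1.20 and 2.20 CPM (1.70 ± 0.47, adjusted p = 0.026), with 1 library inside the range of the controls, and 5 of 22 refits that left out 1 library lost the call (down to 1.27). The highest of the 3 is of series B, and in series A alone, with 2 libraries in each group, the change was 0.77 (adjusted p = 0.39). Ccl17, a ligand of Ccr4 on T helper and regulatory T cells, rose after volume depletion in Hoxb7Cre males, at 0.498, 0.828 and 1.4 CPM against 0.0457, 0.262, 0.108 and 0.155 CPM (2.65 ± 0.53, adjusted p = 0.00044). Ccr4 was at 0.0457 to 0.36 CPM in all Hoxb7Cre males.

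Ccl28, a mucosal ligand of Ccr10 and Ccr3, and Ccl25, the ligand of Ccr9, went the other way. Ccl28 fell to 27.2, 22.3 and 18.2 CPM after volume depletion in Hoxb7Cre males from 45.4, 53.8, 43.1 and 87.5 CPM (-1.35 ± 0.45, adjusted p = 0.021), without overlap. After ischemia it stood at 91.8, 107.6, 205 and 30.3 CPM, 3 libraries above and 1 below every control, and the change did not pass. Ccl25 fell to 1.71, 1.85 and 2.21 CPM from 4.94, 4.04, 3.50 and 4.45 CPM (-1.13 ± 0.24, adjusted p = 0.00069), while its change of -0.73 in Atp6v1b1Cre males fell short of 2-fold. Ischemia against volume depletion gave 2.27 ± 0.46 for Ccl28 and 1.51 ± 0.24 for Ccl25 in Hoxb7Cre, and 1.49 ± 0.43 and 1.38 ± 0.22 in Atp6v1b1Cre males (adjusted p = 0.0006, 4.4e-05, 0.011 and 0.00011). Ccr9 fell as well in Hoxb7Cre males, to 0.387, 0.197 and 0.36 CPM from 1.23, 0.630, 1.61 and 0.673 CPM (-1.73 ± 0.43, adjusted p = 0.0029), and Ccr10 stood at 0.443, 0.907 and 0.585 CPM against 1.19, 0.682, 0.646 and 0.984 CPM. The Ccl28 call was lost without depleted replicate 6 or 7 or control replicate 5 (-1.34 to -1.07) and in series A alone (-1.14, adjusted p = 0.10), and the difference between the injuries in Atp6v1b1Cre was 1.23 without ischemic replicate 4 and 1.22 in series A alone (adjusted p = 0.062 and 0.13). The exons of Ccl25 and Ccr9 share bases with other genes.

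Ccl9 and Ccl6, neighbouring myeloid ligands of Ccr1, rose after ischemia in Atp6v1b1Cre males. Ccl9 stood at 29.4, 32.1 and 9.98 CPM against 7.09, 9.64, 6.29 and 4.84 CPM (1.78 ± 0.37, adjusted p = 0.0057). Ccl6 stood at 24.6, 29.4 and 9.35 CPM against 7.27, 9.06, 6.56 and 4.76 CPM (1.61 ± 0.43, adjusted p = 0.023), a call lost without ischemic replicate 1 or 4 or control replicate 11 (1.31 to 1.51). In both cases 2 libraries were far above the controls and 1 was close to the highest of them. In Hoxb7Cre males Ccl9 stood at 12.3, 5.71, 8.44 and 7.31 CPM against 6.04, 3.04, 2.91 and 1.60 CPM (1.30 ± 0.37, adjusted p = 0.037), and 6 of the refits that left out 1 library lost this call, at 1.06 to 1.36. Within series A, where the 2 controls averaged 4.52 CPM against 2.25 CPM in series B, the groups overlapped and the change was 0.86 (adjusted p = 0.089).

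**Figure D4:**
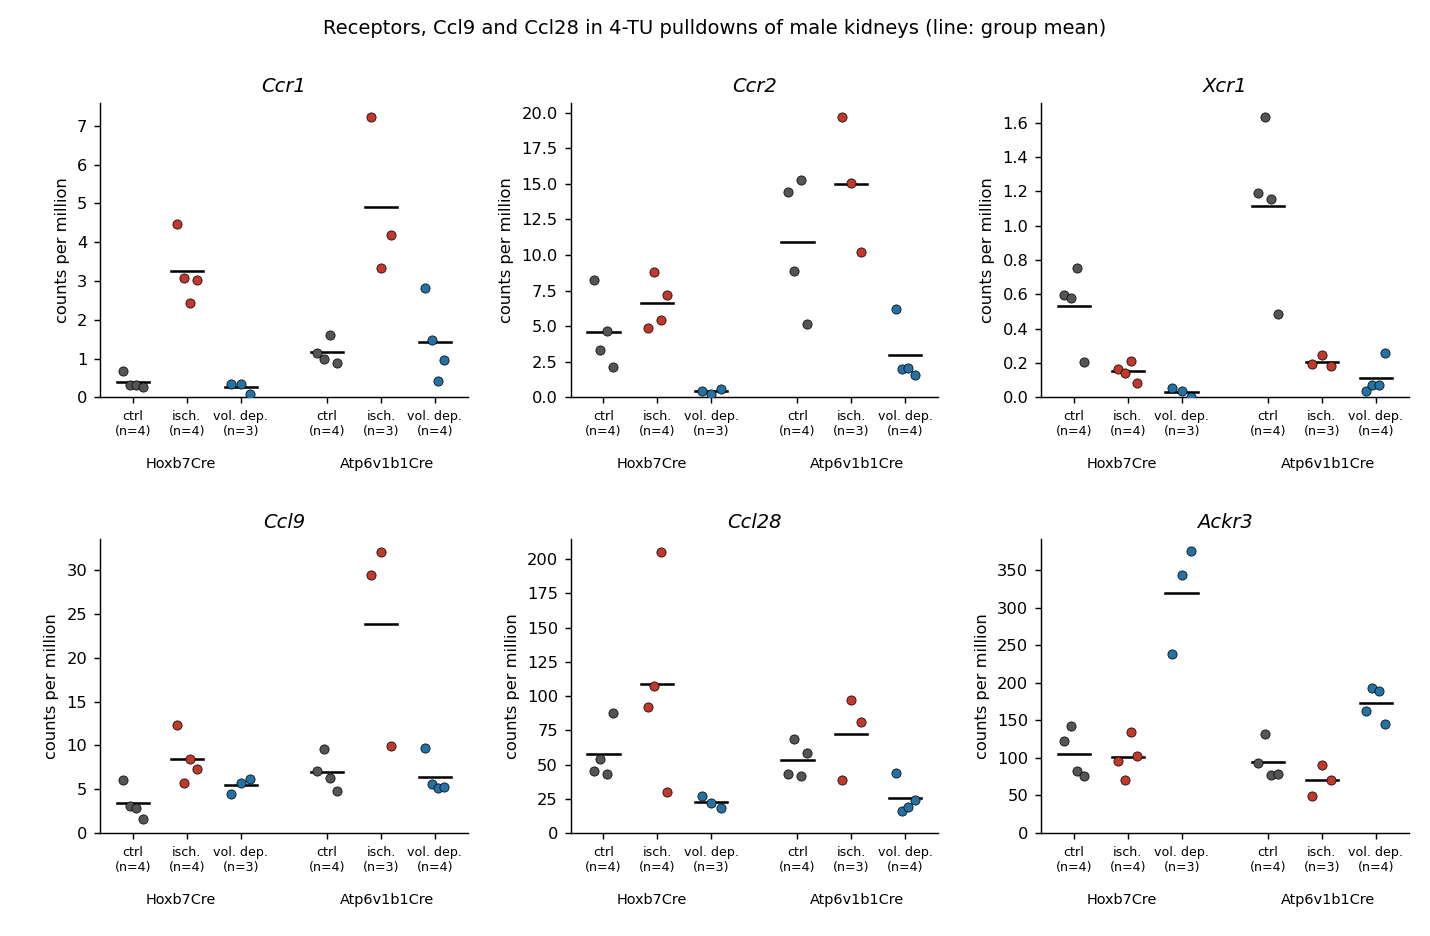
Receptors, Ccl9 and Ccl28 in 4-TU pulldowns of male kidneys, in CPM on linear axes from 0, with 1 point per library for control (ctrl), ischemia (isch.) and volume depletion (vol. dep.) in each Cre line and a line at the group mean. Mean Ccr1 is highest after ischemia, mean Ccr2 lowest and mean Ackr3 highest after volume depletion in both lines.

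Ccr1, the receptor of Ccl9 and Ccl6 on monocytes and neutrophils, rose after ischemia in both lines. It stood at 4.47, 3.07, 2.44 and 3.02 CPM in Hoxb7Cre against 0.686, 0.315, 0.323 and 0.259 CPM in controls (3.00 ± 0.46, adjusted p = 0.00089). The Atp6v1b1Cre levels were 7.23, 3.34 and 4.17 CPM against 1.14, 1.00, 1.62 and 0.893 CPM (2.08 ± 0.42, adjusted p = 0.0049; 1.70 and 0.056 without ischemic replicate 1). Neither comparison had overlapping groups. After volume depletion Ccr1 was at 0.0901 to 0.355 CPM in Hoxb7Cre and at 0.425 to 2.81 CPM in Atp6v1b1Cre males, so that ischemia against volume depletion gave 3.62 ± 0.54 and 1.74 ± 0.42 (adjusted p = 2.7e-05 and 0.0031).

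Ccr2, which lies near Ccr1 on chromosome 9, was higher after ischemia than after volume depletion in each line (3.97 ± 0.59 and 2.31 ± 0.45, adjusted p = 2.6e-05 and 0.00055). Ccr2 fell to 0.443, 0.237 and 0.585 CPM after volume depletion in Hoxb7Cre males from 8.23, 3.36, 4.68 and 2.12 CPM (-3.46 ± 0.59, adjusted p = 1e-04), without overlap. In Atp6v1b1Cre males it fell to 6.24, 1.99, 2.05 and 1.54 CPM from 14.4, 8.90, 15.3 and 5.17 CPM (-1.85 ± 0.43, adjusted p = 0.0060), with 1 depleted library above the lowest control. The receptor fell in the same kidneys in which its ligand Ccl2 rose, and after ischemia it stood at 4.90 to 8.82 CPM in Hoxb7Cre males.

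Xcr1, which marks cross-presenting dendritic cells, was lower after each injury in males of each line. In Atp6v1b1Cre males it fell from 1.19, 1.63, 1.16 and 0.484 CPM to 0.194, 0.249 and 0.181 CPM after ischemia and to 0.0390, 0.0736, 0.0708 and 0.256 CPM after volume depletion (-2.38 ± 0.52 and -3.39 ± 0.54, adjusted p = 0.0078 and 0.00034), and 1 refit lost the ischemic call (adjusted p = 0.058). In series A alone the change after volume depletion was -4.53 (adjusted p = 0.00073). In Hoxb7Cre males 2 counts remained after volume depletion against 42 in controls, a ratio of 0.0521 (exact 95% interval 0.00611 to 0.200, for counting error only). Its ischemic change in that line was -1.81 ± 0.53 (adjusted p = 0.043), which 10 refits without 1 library lost (-2.01 to -1.60). Cx3cr1, the receptor of Cx3cl1 on macrophages, rose after ischemia in Hoxb7Cre males, at 2.18, 3.77, 2.39 and 5.82 CPM against 1.51, 1.68, 0.969 and 0.880 CPM (1.49 ± 0.40, adjusted p = 0.027), and the call was lost in 4 refits (1.14 to 1.43) and in series A alone (1.13, adjusted p = 0.14). Ccr7 and Cxcr5, receptors that bring dendritic and B cells to lymphoid tissue, were called higher after volume depletion in Hoxb7Cre males at levels of 0.443 to 1.30 CPM and 1.16 to 1.35 CPM (1.75 ± 0.59 and 1.21 ± 0.38, adjusted p = 0.024 and 0.015). For Ccr7 the groups overlapped and leaving out depleted replicate 6 gave 1.25 (adjusted p = 0.18), with the call also lost without control replicate 2 or 3. The overlap came from a control of series B, and within series A, where the controls were at 0 and 0.0909 CPM, the change of Ccr7 was 3.96 (adjusted p = 0.0013) and that of Cxcr5 0.99 (adjusted p = 0.055). Exons of Cxcr5 and Cx3cr1 share bases with genes on the other strand, so their counts are uncertain where reads could fall to either.

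Levels of leukocyte markers beside these receptors were as follows. The 14 macrophage and monocyte markers summed to 69.2 to 107.7 CPM in control, 108.5 to 131 CPM in ischemic and 99.1 to 126 CPM in volume-depleted Hoxb7Cre males, and to 171 to 223, 183 to 331 and 118 to 207 CPM in Atp6v1b1Cre males. None of the 14 passed after ischemia in Hoxb7Cre males, where 8 chemokine genes rose, and 4 rose and 2 fell after volume depletion, Adgre1 among the latter. In Atp6v1b1Cre males 1 rose after each injury. The 6 dendritic cell markers, Xcr1 among them, summed to 11.4 to 20.7 CPM in control and 27.8 to 31.7 CPM in volume-depleted Hoxb7Cre males. Whether the receptor changes follow these cells was not tested.

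The atypical receptor Ackr3, which binds and removes Cxcl12 and Cxcl11, had the highest level per exon length of the receptors in controls and rose after volume depletion. In Hoxb7Cre males it stood at 238, 344 and 375 CPM against 123, 142, 82.6 and 75.4 CPM (1.59 ± 0.25, adjusted p = 3.4e-05), without overlap. Its Atp6v1b1Cre levels of 162, 193, 189 and 145 CPM also lay above every control (93, 132, 77.1 and 78.6 CPM), but the change of 0.86 ± 0.23 fell short of 2-fold (adjusted p = 0.016). After ischemia Ackr3 was at 70 to 135 CPM in Hoxb7Cre and 49.7 to 90.7 CPM in Atp6v1b1Cre males, and ischemia against volume depletion gave -1.66 ± 0.25 and -1.30 ± 0.26 (adjusted p = 2.5e-05 and 0.00066). Cx3cl1 stood at 131, 158 and 168 CPM after volume depletion against 71.5, 87.5, 74.2 and 75.9 CPM in Hoxb7Cre males (0.98 ± 0.18, adjusted p = 0.0002), just short of 2-fold. Calls at the lowest levels were those of Cxcl17 and Ccl24. Cxcl17, a mucosal ligand, had no count after volume depletion in Hoxb7Cre males and 14 in controls. With 3 counts over the group as the floor it was at least 4.27-fold lower, and the exact 95% interval of the ratio reached 0.33. Ccl24, an eosinophil attractant, had 6 counts after volume depletion in Atp6v1b1Cre males and 26 in controls (ratio 0.240, exact 95% interval 0.0807 to 0.596). The Ccl24 call was lost in 5 of 22 refits and in series A alone (-1.34, adjusted p = 0.38).

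The injuries were also compared directly within each line. In Hoxb7Cre males 17 chemokine genes differed (29.8%, against 14.7% of all genes), of which 10 favoured ischemia and 7 volume depletion (6.55% and 8.15%). In Atp6v1b1Cre males 14 differed (24.6%, against 11.6%), 11 and 3 in that order (4.39% and 7.16%). After leaving out 1 library the counts were 11 to 18 and 10 to 16, the lowest in Hoxb7Cre being without depleted Hoxb7Cre replicate 6. Companion gene lists were counted in the same comparisons, in which 9.61% and 3.45% of all genes rose after volume depletion and 1.52% and 1.14% after ischemia in Hoxb7Cre and Atp6v1b1Cre males. Of 22 NF-kappaB response genes, 18 rose after volume depletion in Hoxb7Cre and 10 in Atp6v1b1Cre males (medians of 2.05 and 1.17), against 1 and 0 after ischemia (medians of 0.47 and 0.06). Icam1, an adhesion molecule, rose by 2.98 and 1.65 and Nfkbia, the inhibitor of NF-kappaB, by 2.10 and 1.81 on the log2 scale. Of 16 interferon response genes 6 rose and 1 fell in Hoxb7Cre and 3 rose in Atp6v1b1Cre males after volume depletion, and none passed after ischemia (edgeR). Of 8 injured tubule genes 6 rose after ischemia in each line, with Havcr1 at 5.45 and 6.03, while 2 and 0 rose after volume depletion. Among 24 other genes of the chemokine system, 7 rose after volume depletion in Hoxb7Cre and 3 in Atp6v1b1Cre males; Ccrl2, a non-signalling receptor that presents chemerin, rose by 4.18 and 1.61.

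No chemokine gene was called when the response to injury was compared between the lines in males (edgeR, 0 of 57 for ischemia and 0 for volume depletion, against 3.49% and 2.93% of all genes, split into 1.88% higher and 1.6% lower for ischemia and 1.6% and 1.34% for volume depletion). At an unadjusted p under 0.05 there were 6 and 12, and DESeq2 called 1 and 2 (against 4.72% and 4.35% of all genes): Ccl3 for ischemia, Ccl17 and Cxcr5 for volume depletion. With the library series as a covariate 5 and 7 were called, while the share of all genes called rose to 5.89% and 6.68%. Among them were Cxcl1 and Cxcl2, whose responses were then larger in Hoxb7Cre by 4.15 and 2.54 on the log2 scale for ischemia (adjusted p = 0.0038 and 0.017) and by 4.04 and 3.65 for volume depletion (adjusted p = 0.0044 and 0.00084). In the edgeR fit without the series neither gene was called for either injury. That fit gave 2.5 ± 0.93 for Cxcl2 after volume depletion (adjusted p = 0.14). Called in both lines in the same direction after ischemia were, among others, Ccl9, Cxcl14 and Ccr1 (higher) and Xcr1 (lower), and after volume depletion Ccl2, Cxcl1 and Cxcl2 (higher) and Xcr1 and Ccr2 (lower). None was called in opposite directions.

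In females the same comparisons were made in a fit of both sexes. Ischemia called 10 genes in Hoxb7Cre females, all higher (17.5%, against 1.52% of all genes higher and 5.7% in either direction), and 9 in Atp6v1b1Cre females, 5 higher and 4 lower (15.8%, against 2.59%, of all genes 1% higher and 1.59% lower). Volume depletion called 1 gene in Hoxb7Cre, higher (1.75%, against 0.0756% of all genes higher and 0.194% in either direction), and 10 in Atp6v1b1Cre females, 5 in each direction (17.5%, against 11.8%, of all genes 7.65% higher and 4.18% lower). The groups did not overlap for 4 and 14 of the 57 genes after volume depletion (3.46% and 31.2% of all genes). With 1 library left out, 6 to 11 genes were called after ischemia in Hoxb7Cre and 2 to 10 in Atp6v1b1Cre females. After volume depletion the ranges were 0 to 2 and 5 to 11. Among series A libraries alone, the counts in Hoxb7Cre females were 2 and 0, but there the control arm is 1 library, taken to vary like the other groups.

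**Figure D5:**
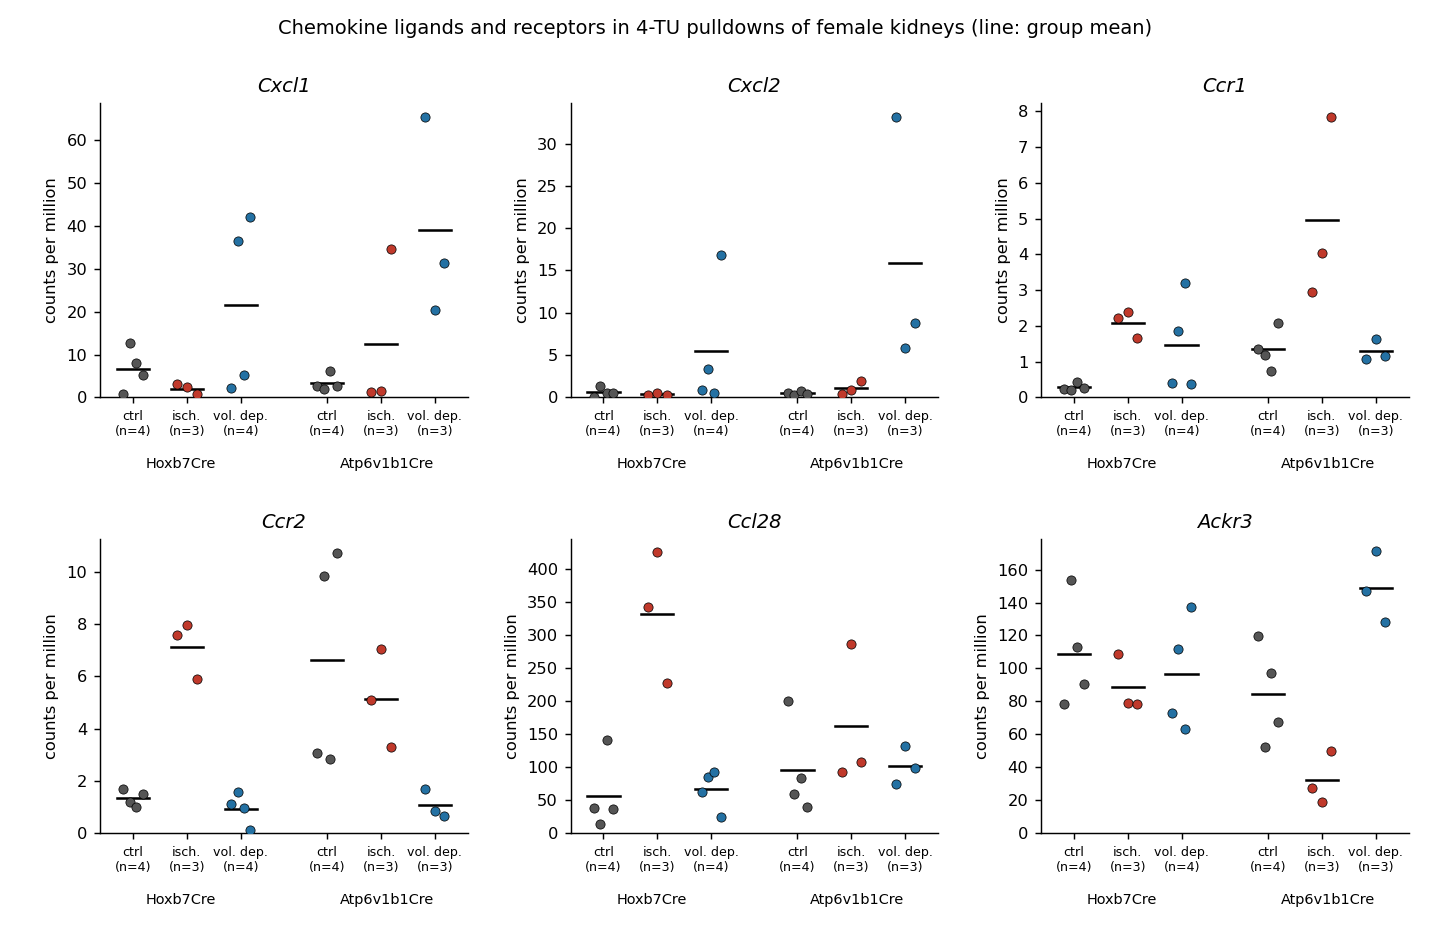
Chemokine genes in 4-TU pulldowns of female kidneys, in CPM on linear axes from 0, with 1 point per library for control (ctrl), ischemia (isch.) and volume depletion (vol. dep.) in each Cre line and a line at the group mean. Ccr2 and Ccl28 are highest after ischemia in Hoxb7Cre, and Cxcl2 and Ackr3 after volume depletion in Atp6v1b1Cre.

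Of the genes called after ischemia in Hoxb7Cre females, Ccl6, Ccl9, Ccr1, Ccr2 and Ccl28 are given first. Ccl6 stood at 7.96, 9.12 and 14.8 CPM against 0.932, 0.863, 1.11 and 0.929 CPM (3.47 ± 0.51, adjusted p = 0.00029). Ccl9 stood at 6.82, 9.12 and 13.0 CPM against 1.20, 1.03, 1.06 and 1.52 CPM (3.00 ± 0.47, adjusted p = 0.00038). Ccr1 and Ccr2 rose by 2.89 ± 0.58 and 2.41 ± 0.52 (adjusted p = 0.0032 and 0.0048), and none of these 4 overlapped the controls, as was so for 14 of the 57 chemokine genes (22.8% of all genes). Ccl28 rose to 343, 425 and 227 CPM from 37.6, 13.1, 141 and 36.2 CPM (2.55 ± 0.58, adjusted p = 0.0055). These 5 calls held whichever library was left out, with the change of Ccl28 at 2.22 to 3.52, while those of Ccl24, Ccl25, Ccr3 and Cxcl5 did not. The macrophage and monocyte markers, 5 of 14 higher, summed to 98.8 to 146 CPM after ischemia and 56.7 to 119 CPM in controls, and their part in these rises was not tested.

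After volume depletion Ccr1 alone was called in Hoxb7Cre females, at 0.404, 1.86, 3.21 and 0.369 CPM against 0.222, 0.205, 0.432 and 0.253 CPM, so that 2 libraries were high and 2 overlapped the controls (2.41 ± 0.56, adjusted p = 0.045), and 19 of the refits that left out 1 library lost the call. Cxcl1 in these females was uneven, at 2.25, 36.6, 5.27 and 42.1 CPM against 0.710, 12.7, 8.02 and 5.28 CPM, and did not pass. Atp6v1b1Cre females were more even: Cxcl1 stood at 65.5, 20.5 and 31.4 CPM after volume depletion against 2.65, 1.92, 6.13 and 2.77 CPM (3.54 ± 1.02, adjusted p = 0.0093; 0.053 in 1 refit), and Cxcl2 at 33.2, 5.81 and 8.84 CPM against 0.510, 0.279, 0.742 and 0.365 CPM (5.06 ± 0.88, adjusted p = 0.00013). Over refits that left out 1 library the change of Cxcl1 was 2.95 to 4.00 and that of Cxcl2 3.94 to 5.47. Ccr2 and Xcr1 fell by 2.63 and 2.27 on the log2 scale (adjusted p = 0.0012 and 0.012), and the call of Xcr1 was lost in 3 of 43 refits (-3.68 to -1.72 over all of them). Ackr4 rose to 4.83, 6.92 and 4.42 CPM from 1.67, 1.68, 2.57 and 1.93 CPM (1.46 ± 0.30, adjusted p = 0.00053). Cxcl17 and Ccl24 had no count in the 3 depleted libraries and were at least 1.92-fold and 3.07-fold lower, with 3 counts over the group as the floor, and 4 refits lost the call of Cxcl17.

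Atp6v1b1Cre females after ischemia showed Ccr1 at 2.95, 4.04 and 7.85 CPM against 1.35, 1.20, 0.742 and 2.09 CPM (1.87 ± 0.49, adjusted p = 0.014) and Cxcl5 at 0.737, 1.18 and 0.398 CPM against 0.0928, 0.0399, 0.0495 and 0.209 CPM (2.97 ± 0.74, adjusted p = 0.0094). Ackr3 fell to 27.6, 18.7 and 49.8 CPM from 120, 52.3, 97.4 and 67.4 CPM (-1.4 ± 0.32, adjusted p = 0.0055). The injured and control groups did not overlap for these 3, nor for 15 of the 57 chemokine genes in all (16.9% of all genes), and each of the 3 calls was lost in 1 of 43 refits. Cxcl14 stood at 4.99, 4.59 and 25.1 CPM against 1.88 to 2.19 CPM (2.52 ± 0.57, adjusted p = 0.0052), and without replicate 6, the highest, the change was 1.25 (adjusted p = 0.12). Cxcr3, Cxcr5 and Xcr1 were called lower (-2.22, -1.34 and -1.86), each lost in 4 or 5 refits that left out 1 library.

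The response itself was compared between the sexes. For ischemia in Hoxb7Cre 3 genes differed (5.26%, against 6.98% of all genes, 2.22% with the higher female response and 4.77% with the lower), namely Ccl6 and Xcr1 with the higher and Cxcl14 with the lower female response. Xcr1 had 17, 11 and 2 counts in ischemic Hoxb7Cre females and 4, 9, 5 and 8 in their controls. Its fall in males was thus not seen throughout these females. For volume depletion 8 differed (14.0%, against 10.8%), 3 with the higher and 5 with the lower female response (5.35% and 5.48%). For Atp6v1b1Cre none did in edgeR or DESeq2, nor did any of all genes (0%), with 6 and 4 at an unadjusted p under 0.05. Ackr3 showed the difference in Hoxb7Cre: females stood at 72.8, 112, 63.3 and 137 CPM after volume depletion and at 78.6, 154, 113 and 90.3 CPM in controls, and the female response was lower than the male by 1.77 ± 0.41 on the log2 scale (adjusted p = 0.0054). For Cxcl1 the female response to volume depletion was lower by 3.09 ± 1.35, which did not pass (adjusted p = 0.11). Of the 4 female Hoxb7Cre controls 3 are of series B or C, while the injured libraries are of series A, and with the series as a covariate the counts were 6 and 9. The share of all genes in that fit is not given, so these 2 counts say nothing of the chemokine genes in particular. In series A alone, where 1 female control is left and taken to vary like the other groups, all 11 calls were lost, that of Ackr3 at -0.99 (edgeR, adjusted p = 0.46). Across the sexes, Ccl9, Cxcl5 and Ccr1 were called higher after ischemia in Hoxb7Cre, and Ccl9, Cxcl14 and Ccr1 in Atp6v1b1Cre, where Xcr1 was called lower. The Ccl9 call in Atp6v1b1Cre females (1.29 ± 0.43, adjusted p = 0.048), at 11.6, 24 and 5.12 CPM against 4.99 to 6.37 CPM, was lost in 24 of 43 refits that left out 1 library, with changes down to 0.60. After volume depletion Cxcl1 and Cxcl2 rose and Ccl24, Xcr1 and Ccr2 fell in Atp6v1b1Cre of both sexes, while no gene was called in both sexes in Hoxb7Cre.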

How the data were processed

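The data are raw read counts per gene that the authors deposited as 1 matrix of 69 libraries and 24411 genes; every column matched a sample label. Per the paper and the labels, RNA tagged with 4-TU was biotinylated and captured on streptavidin beads, and libraries were made with a TruSeq RNA kit after poly(A) purification. The authors converted the base calls with CASAVA 1.8.2, trimmed reads with Trimmomatic 0.36, aligned them to mm10 with STAR 2.5.3a and counted them with HTSeq 0.6.1p2. The annotation and the strand of the libraries are not given in the sources used here, so genes whose exons overlap are uncertain.

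The 21175 genes that reached 2 counts summed across libraries were tested with the quasi-likelihood test of edgeR 4.0.16 (R 4.3.3, limma 3.58.1, TMM scaling), with Benjamini-Hochberg adjustment over all genes. A gene was called at an adjusted p under 0.05 and an absolute log2 fold change of at least 1. One fit held the 22 male pulldowns of 5.5 months, one the 42 control libraries with sex as a covariate, and one the 43 pulldowns of 5.5 months in 12 groups. CPM are scaled within each fit and so differ slightly between them. The SE of a log2 fold change was derived from the F statistic. Replicates carry separate sample labels and the study counts its samples as mice, although no label names the mouse. Total and pulldown libraries of controls may come from the same mice; the labels do not pair them, so they were fitted as independent, and a fit with genotype, sex, age and library series as a block was added after seeing the data. DESeq2 1.42.0, other filters and scalings, a replicate block, the library series and each library left out were tried as alternatives. Simulated counts were used to test the male fit only, for ischemia against control in Hoxb7Cre.

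Values per library are given for chemokine genes called in a comparison of injury with control at a mean of at least 10 counts, those called in both lines, the 5 highest and 5 lowest called against total RNA, and the known receptors of the ligands; 1 gene that meets this rule is counted but not reported here by name, and other genes are given as counts or were named after their values were seen. Exon lengths came from the GENCODE annotation of GRCm38 and promoters from RefSeq. The genes, the marker lists and the companion lists were chosen with earlier results of these data known. Vcam1 and Irf1 are on both the NF-kappaB and another list.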

Additional observations from a re-analysis of the deposited data

Results flagged for a closer look

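Among 168 groups of 4 values for 24 chemokine genes, 14 held a library whose gap to the nearest other was large for the range of its group. The criterion would flag about 1 in 20 groups of independent, normally distributed values. Low counts, and genes measured in the same libraries, are not such values, so no excess can be read from the 14. Volume-depleted Atp6v1b1Cre male 1 was the high one for Ccl9 (9.74 CPM, the others at 5.17 to 5.55), Cxcl9 (1.71, others 0.142 to 0.294) and Ccr2 (6.24, others 1.54 to 2.05). In the same group male 6 was high for Cxcl11 (7.93, others 0.846 to 1.36) and male 7 for Xcr1 (0.256, others 0.0390 to 0.0736). Volume-depleted Hoxb7Cre female 5 was high for Cxcl2 (16.9, others 0.571 to 3.33), Cxcl10 (45.4, others 14.7 to 17.9) and the atypical receptor Ackr4 (7.02, others 2.42 to 3.00). Of the Hoxb7Cre controls, male 4 was high for Cxcl9 (3.23, others 0.210 to 0.725), male 2 for Ccr1 (0.686, others 0.259 to 0.323), male 3 for Cxcl3 (0.0525, others 0, which is 1 count beside none and meets the criterion by itself), female 6 for Ccl2 (7.97, others 0.577 to 0.971) and female 1 for Ccl25 (4.40, others 2.35 to 2.67). Atp6v1b1Cre control female 13 was high for Ccl2 (2.19, others 1.52 to 1.62).

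The response of Hoxb7Cre kidneys differed between the sexes for 11 chemokine genes by the interaction term of edgeR, a share near that of all genes (5.26% against 6.98% for ischemia, 14.0% against 10.8% for volume depletion). For ischemia the female minus male log2 differences were 2.21 for Ccl6, -2.92 for Cxcl14 and 2.98 for Xcr1 (adjusted p = 0.030, 0.024 and 0.029), and 8, 4 and 5 of 43 refits that left out 1 library lost them. For volume depletion they were negative for Ackr3 (-1.77), Ccr7 (-3.13), Cxcl11 (-2.93), Ccl17 (-3.46) and Cxcr5 (-2.24) and positive for Cxcl17 (5.13), Ccr1 (3.02) and Ccr2 (2.94). The difference for Ccr7 was lost in 28 of 43 such refits and that for Cxcl11 in 7 (down to -1.45, adjusted p = 0.336), while Cxcl17 and Ccr1 were lost in 3 each, Ccr2 in 1, and Ackr3, Ccl17 and Cxcr5 in none. All 11 were lost in series A alone, which leaves 1 female control, with Ackr3 at -0.99, Ccl17 at -1.68 and Cxcr5 at -0.97 (adjusted p = 0.46, 0.62 and 0.64). The male values of Cxcl17 rest on 0 counts after volume depletion, so the size of its difference depends on the fit.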

How the results depend on the processing

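No called chemokine gene changed direction under any alternative. Calls of single genes were kept for 154 of 161 with DESeq2, 161 of 163 with its size factors, 136 of 136 with the filter of edgeR's filterByExpr, 161 of 163 without a filter, 153 of 163 with library series as a covariate and 72 of 113 in series A alone (chosen after the data were seen; 1 Hoxb7Cre female control is left there, taken to vary like the other groups). Of the male calls, 51 of 72 were kept in a fit of both sexes, 61 of 72 with only the groups compared and 69 of 72 with 25 males. Of the calls in controls, 34 of 50 were kept in males only, 35 of 50 in females only and 42 of 50 at 5.5 months only. With genotype, sex, age and library series as a block, 33 of 35 calls against total RNA were kept. In that fit 19 chemokine genes were called in Hoxb7Cre and 24 in Atp6v1b1Cre (30.2% and 27.3% of all genes). Leaving out 1 library at a time kept 3064 of 3347 calls, and 53 of 113 results were kept in every such refit. No label pairs the samples by replicate number, and same-numbered libraries of a line can differ in sex. The mean correlation of same-numbered libraries was -0.111 over 6 pairs in Hoxb7Cre and -0.128 over 2 pairs in Atp6v1b1Cre (-0.475 and 0.218), against 0.0197 and 0.00654 for other pairs. So few pairs cannot settle whether the numbers pair samples. Fits with the replicate number as a block kept 91 of 163 calls.

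Counts of called chemokine genes moved as follows, the cause not being tested. Where no share of all genes stands beside a count, here or in the next paragraph, none was set against it. Such a count says nothing of the chemokine genes in particular. In Hoxb7Cre males DESeq2 gave 16 for ischemia, and for volume depletion the replicate block gave 11 and a fit of both sexes 10. In Atp6v1b1Cre males the replicate block gave 0 for ischemia, 11 for volume depletion and 9 between the injuries. A fit of both sexes gave 14 for ischemia and 22 between the injuries, only the groups compared gave 3 for volume depletion and 9 between the injuries, and no fold threshold gave 11 for volume depletion. Between the lines DESeq2 gave 1 and 2 for ischemia and volume depletion (4.72% and 4.35% of all genes) and filterByExpr 1 and 1 (5.19% and 4.33%). The series covariate gave 5 and 7 (5.89% and 6.68%), all 25 males 1 and 1 (3.9% and 3.94%) and series A 2 and 7 (8.15% and 8.9%). Only the groups compared gave 1 for ischemia (3.99%). In controls, Atp6v1b1Cre against total RNA gave 12 with filterByExpr and 30 without a fold threshold, and Atp6v1b1Cre against Hoxb7Cre gave 7 in females only. In Hoxb7Cre females ischemia gave 2 with the replicate block and 2 in series A, and volume depletion 3 with DESeq2 and 0 with the block, the series covariate or series A. The sex difference in Hoxb7Cre for ischemia was 6 with DESeq2 or the series covariate and 0 with the block or series A, and for volume depletion 0 with the block or series A. In Atp6v1b1Cre females the replicate block gave 0 for ischemia and 1 for volume depletion.

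With 1 library left out, the counts in Hoxb7Cre males were 5 to 13 for ischemia (5 without ischemic replicate 7 or control replicate 4), 15 to 20 for volume depletion and 11 to 18 between the injuries. In Atp6v1b1Cre males they were 2 to 8 (2 without ischemic replicate 1, 4 without control replicate 6 or 11), 4 to 10 (10 without depleted replicate 1) and 10 to 16. Between the lines they were 0 to 1 and 0 to 2. In Hoxb7Cre females they were 6 to 11 (6 without ischemic replicate 3) and 0 to 2, and for the sex differences 0 to 6 and 4 to 15 (15 without depleted female 5, 4 without depleted male 7, 5 without depleted male 6 or female 3). In Atp6v1b1Cre females they were 2 to 10 (2 without ischemic replicate 3, 4 without replicate 2, 5 without control replicate 13) and 5 to 11 (5 without depleted replicate 3, 6 without control replicate 13). Genes under about 1 CPM rest on few counts, and the comparisons of injury rest on 3 or 4 libraries a group.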
